A study of Mus musculus with 6 samples.

Results

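Immediate early genes, heat shock genes and genes of the unfolded protein response of the endoplasmic reticulum (ER) were followed in CD45-negative cells of mouse lungs, from untreated mice and from mice given silica. A list named 43 such genes, 17 immediate early, 13 heat shock and 13 ER stress genes. It was chosen with earlier results of these data known. A gene counted as measured where a probe named for it by its RefSeq accession was well above background on 2 or more of 6 arrays, which held for 41 of the 43 and for 16440 genes in all. The exceptions were Egr3, whose probe was above background on 0 arrays, and Hspa1b, for which no probe was matched. Each of the 41 was above background on all 6 arrays.

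The study compared 2 genotypes, wild-type C57BL/6J mice (WT) and B6.129S4-Ccr2tm1Ifc/J mice that lack the chemokine receptor Ccr2 (Ccr2KO), aged 7 to 9 weeks when the experiments began. Each genotype was sampled untreated (labelled day 0) and at day 28 and day 40 after silica aspiration, which gave 6 groups. All 6 groups share the same cell preparation, with enzymatic digestion of the perfused lungs, removal of red blood cells and silica on a Percoll gradient, and magnetic sorting of cells without CD45. Every group is 1 one-colour array, hybridised with a pool of RNA from 3 biological replicates, and no spread between animals can be seen and the pool is the unit compared.

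Immediate early genes are transcribed within minutes of a stimulus, without new protein synthesis, and many encode transcription factors such as the FOS and JUN subunits of AP-1 or feedback inhibitors that end the signal. Heat shock genes encode chaperones that HSF1 induces when proteins misfold in the cytosol. In the unfolded protein response, sensors in the ER membrane raise ER chaperones and folding enzymes through XBP1 and ATF6 and raise amino acid and cell death genes through ATF4. Digestion of a tissue into single cells is itself known to induce immediate early and heat shock genes. All 6 groups were digested, and its part in any level was not tested.

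Levels are given as log2 of the scanner's processed signal minus the array's 75th percentile, so 0 is that percentile and 1 unit is 2-fold. Differences are on the same log2 scale, with the standard error (SE) of an additive limma fit of day and genotype over the 6 arrays. A gene was called at a Benjamini-Hochberg adjusted p under 0.05 over all 16440 genes. With 1 array per group, the error in that fit is what day and genotype leave unexplained (2 residual degrees of freedom), not a spread between replicates. "Silica" stands for the mean of days 28 and 40 minus untreated.

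The whole series can be described briefly. Between 58.2% and 64.4% of probes were above background per array, and the 75th percentile of the processed signal ran from 793 to 1179. Ptprc, which encodes CD45, was above background on all 6 arrays. Its levels in WT were 1.54 untreated, 2.62 at day 28 and 0.29 at day 40, and in Ccr2KO 0.45, 2.14 and -0.61 in the same order. All 12 pan-leukocyte markers were measured, and their mean level was 3.74 (WT) and 3.33 (Ccr2KO) at day 28 against 0.995 to 2.48 on the other 4 arrays. Ccr2 was lower in Ccr2KO on each of the 3 days, with a fitted difference of -3.33 ± 0.66 (SE) and an adjusted p of 0.415 by limma. Whether its probe lies in the deleted part was not established here. In such bulk RNA, fewer cells of a type and less RNA per cell cannot be told apart.

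Of the immediate early genes, 16 of 17 were measured, and as a group they were lowest on both day 28 arrays. For 12 of the 16 (75%) both day 28 levels lay below all 4 other levels, against 17.6% of all genes. These 12 were Fos, Fosb, Jun, Junb, Jund, Egr1, Atf3, Btg2, Ier2, Ier3, Zfp36 and Nr4a1, and Fosl1, Fosl2, Egr2 and Dusp1 did not show the order. At day 28 the fit called 4 of them lower than untreated, Egr1, Atf3, Btg2 and Ier3, where 8% of all genes were called lower, and 0 higher, where 9.17% were. The median difference of the 16 genes was -0.56 at day 28 and 0.05 at day 40, beside -0.05 and 0.02 over all genes.

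**Figure D1:**
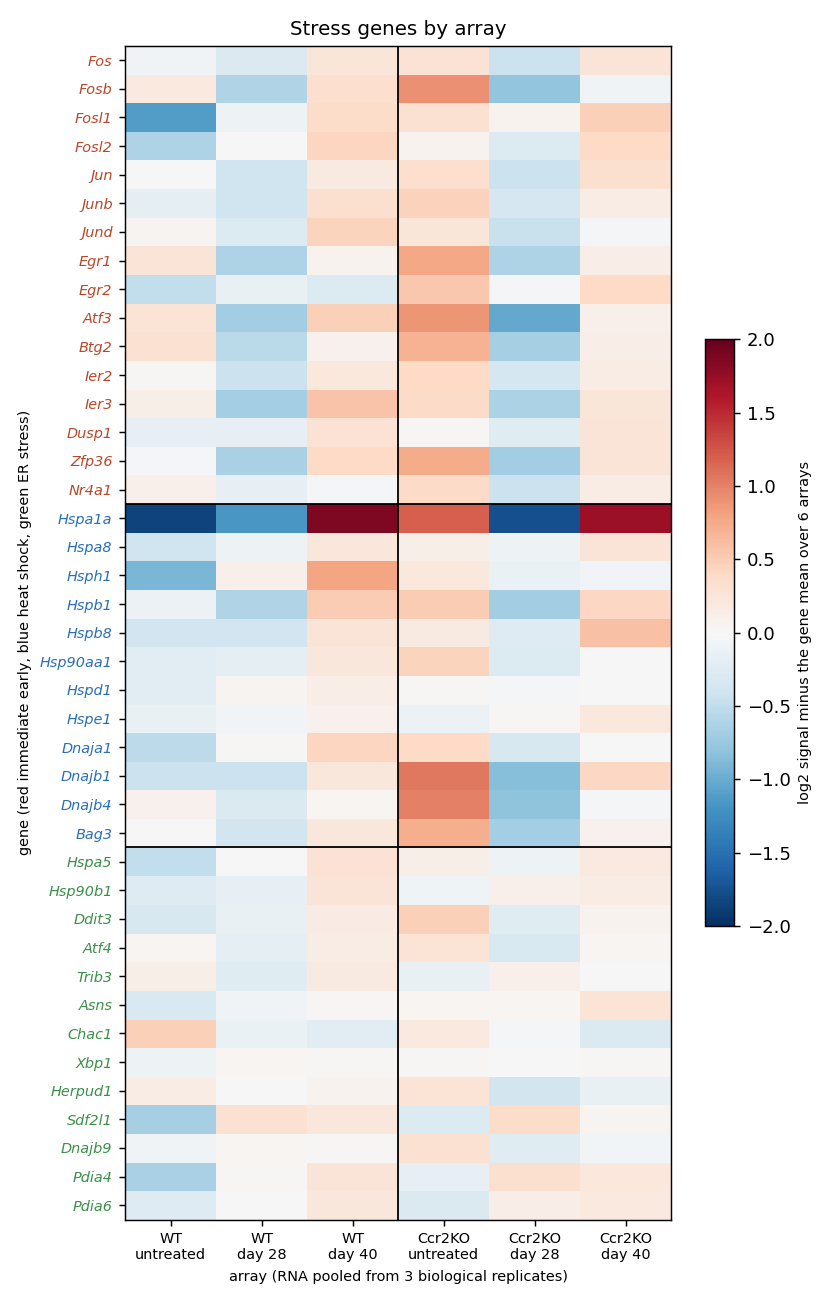
Levels of the 41 measured genes on the 6 arrays, as log2 signal minus the gene's mean over the arrays (colour, limited at 2.0 either way), with immediate early genes at the top, heat shock genes in the middle and ER stress genes at the bottom. The day 28 columns are blue for most immediate early genes in both genotypes, and the row of Hspa1a has the strongest colours.

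Egr1, a zinc finger transcription factor induced by growth factors and stress, had a level of 7.18 in untreated WT, 6.30 at day 28 and 6.99 at day 40. In Ccr2KO its levels were 7.70, 6.30 and 7.04 in the same order. Both day 28 arrays were the lowest and both untreated arrays the highest. The untreated arrays lay above all 4 silica arrays with no overlap, an order found in 24% of all genes. Egr1 was 1.14 ± 0.17 (SE) log2 units lower at day 28 than untreated (fitted difference -1.14, adjusted p = 0.0258 by limma), and over both silica days the difference was -0.78 ± 0.15 (adjusted p = 0.0362).

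Btg2, an antiproliferative protein that recruits the deadenylase complex to mRNA, followed the same order. Its levels were 4.95, 4.11 and 4.74 in WT (untreated, day 28, day 40) and 5.34, 3.98 and 4.78 in Ccr2KO. Day 28 was again lowest in both genotypes and untreated highest. Both untreated levels lay above all 4 silica levels in 2 of 16 immediate early genes, Egr1 and Btg2 (12.5%). This share is below the 24% of all genes. With quantile normalisation 6 of 16 had that order (27.2% of all genes), and in the deposited unscaled values 8 of 16 (26%). The fitted difference was -1.10 ± 0.17 at day 28 (adjusted p = 0.0252 by limma) and -0.74 ± 0.14 for silica (adjusted p = 0.0365). Egr1 and Btg2 were the immediate early genes called for silica, 2 lower and 0 higher of 16, where 9.28% of all genes were called lower and 10.5% higher.

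Atf3 is a stress-induced transcription factor of the ATF/CREB family that also answers to ATF4. Its levels in WT were 6.38, 5.42 and 6.58 (untreated, day 28, day 40), and in Ccr2KO 6.99, 5.08 and 6.22. At day 40 the WT pool was above its untreated pool and the Ccr2KO pool below its own, so the untreated and day 40 levels overlapped. The day 28 difference was -1.43 ± 0.29 (adjusted p = 0.0435 by limma). Over both silica days it was -0.86 ± 0.25, which missed the threshold (adjusted p = 0.0858).

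Ier3, a modulator of apoptosis, was called at day 28 only among the comparisons with untreated mice. It stood at 5.31, 4.52 and 5.76 in WT and at 5.58, 4.56 and 5.43 in Ccr2KO, so that the untreated and day 40 values overlapped and both day 28 values lay under them. Its day 28 difference was -0.91 ± 0.18 (adjusted p = 0.0414 by limma).

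These calls rest on few arrays. Without the WT or the Ccr2KO day 28 array, 0 of all genes were called at day 28, and the adjusted p by limma was 0.168 or 0.184 for Egr1, 0.156 or 0.176 for Btg2, 0.208 or 0.250 for Atf3 and 0.254 or 0.220 for Ier3, with every difference at -0.88 or lower. Without the untreated Ccr2KO array only Atf3 of the 4 passed (adjusted p = 0.0498), and Egr1 had -0.90 (adjusted p = 0.0563), Btg2 -0.89 (0.0617) and Ier3 -0.70 (0.119). Without the untreated WT array Ier3 did not pass (adjusted p = 0.0501), and without either day 40 array Atf3 did not (0.0586 both times). The silica calls of Egr1 and Btg2 held when untreated WT was left out (adjusted p 0.0354 and 0.0434) and ended with any of the other 5 arrays left out, with adjusted p from 0.0768 to 0.139 for Egr1 and from 0.0872 to 0.130 for Btg2. A fit that blocked on slide row called 0 of all genes, with a silica difference of -1.002 for Egr1 (adjusted p = 0.315) and -0.9996 for Btg2 (adjusted p = 0.294). With no filter on dim probes none of the 5 calls at day 28 and none of the 3 for silica was made.

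Of the 7 AP-1 subunits, Fos, Fosb, Jun, Junb and Jund had the day 28 low point, and none of the 7 was called in any comparison of the fit described above. Jun was called lower at day 28 with quantile normalisation, and Jun, Fosb, Ier2 and Zfp36 with normexp background correction, in the deposited value table, with an intensity trend and among genes above background on all 6 arrays. Fos read 6.94, 6.71 and 7.25 in WT against 7.30, 6.57 and 7.27 in Ccr2KO. Fosb read 6.08, 5.29 and 6.22 in WT against 6.79, 5.09 and 5.81 in Ccr2KO, a day 28 difference of -1.25 ± 0.31 (adjusted p = 0.0658 by limma). Jun read 7.51, 7.11 and 7.70 in WT against 7.86, 7.08 and 7.83 in Ccr2KO, a difference of -0.59 ± 0.14 (adjusted p = 0.0597). For each of these 3 genes the day 28 pool was the lowest of its genotype, and in Ccr2KO none was higher at day 40 than untreated. Junb ran from 2.16 to 3.02 and Jund from 5.89 to 6.77 over the 6 arrays, each lowest at day 28.

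Fosl1 and Fosl2, the FOS-related subunits of AP-1, did not follow the other subunits. Fosl1 had its lowest level in untreated WT, -2.91, against -1.91 and -1.43 at days 28 and 40, and in Ccr2KO its levels were -1.50, -1.73 and -1.33. Fosl2 was likewise lowest in untreated WT, at 2.94, followed by 3.55 and 3.99, and read 3.62, 3.29 and 3.95 in Ccr2KO. A second Fosl2 probe, above background on all 6 arrays, also had its minimum in untreated WT. In both genes WT was higher on each silica day than untreated, while in Ccr2KO day 28 was the lowest point.

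Feedback regulators were split. Zfp36, which encodes the mRNA-destabilising protein tristetraprolin, read 3.998, 3.39 and 4.43 in WT against 4.78, 3.34 and 4.29 in Ccr2KO, lowest at day 28 in both (difference -1.03 ± 0.27, adjusted p = 0.0731 by limma). Dusp1, a phosphatase that switches off MAP kinases, stayed between 5.18 and 5.71 on all 6 arrays, with both day 40 values at the top. The nuclear receptor gene Nr4a1 ran from 7.18 in Ccr2KO at day 28 to 7.99 in untreated Ccr2KO, and Ier2 from 2.52 in WT at day 28 to 3.34 in untreated Ccr2KO. Egr2, which encodes a relative of Egr1, read 2.18, 2.52 and 2.39 in WT against 3.21, 2.63 and 3.06 in Ccr2KO, higher in Ccr2KO on every day.

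Since these genes are induced through short elements near their start sites, the 250 bases before the annotated start were searched on both strands (RefSeq sequence, GRCm38.p6). A window was found for 36 of the 41 measured genes, 13 of them immediate early. The palindromic cAMP response element TGACGTCA, bound by CREB and ATF factors, was found in Btg2 and Dusp1 (2 of 13) and in 1.77% of all genes. The CArG box, the site of serum response factor, was found in Egr2 and Zfp36, and in 1.62% of all genes. The amino acid response sequence TGATGCAA, which C/EBP-ATF factors bind, was found in Atf3 and in 0.918% of all genes. Among the ER stress genes Chac1 and Herpud1 had it (2 of 13). The AP-1 site TGANTCA was found in 0 of the 13 immediate early genes and in 7.82% of all genes. Bag3 had it among the heat shock genes (1 of 10), and Hspa5 and Ddit3 among the ER stress genes (2 of 13). A match describes letters and not binding, and no match says only that these letters are not in the window.

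The windows of 3 genes are shown because their levels on the arrays carry the day 28 pattern and each holds a different element, in capitals. Btg2 lies at chr1:134079156-134079405 on the minus strand and its cAMP response element starts 166 bases before the start. Atf3 lies at chr1:191183334-191183583, minus strand, and its element, printed as the reverse complement TTGCATCA, starts at 110 bases. Zfp36 lies at chr7:28379229-28379478, minus strand, with its CArG box at 58 bases. Each is written 5′ to 3′ on the gene's strand.
Btg2: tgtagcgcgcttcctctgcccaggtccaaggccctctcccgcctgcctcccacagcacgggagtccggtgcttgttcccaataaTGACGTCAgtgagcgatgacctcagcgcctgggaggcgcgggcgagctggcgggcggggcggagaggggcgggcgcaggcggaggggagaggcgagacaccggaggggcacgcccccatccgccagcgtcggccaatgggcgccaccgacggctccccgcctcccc
Atf3: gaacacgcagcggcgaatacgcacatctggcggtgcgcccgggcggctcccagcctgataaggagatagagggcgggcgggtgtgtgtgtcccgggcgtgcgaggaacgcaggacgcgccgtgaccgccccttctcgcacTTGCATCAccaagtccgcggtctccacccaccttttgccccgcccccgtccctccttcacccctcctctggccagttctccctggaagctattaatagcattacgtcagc
Zfp36: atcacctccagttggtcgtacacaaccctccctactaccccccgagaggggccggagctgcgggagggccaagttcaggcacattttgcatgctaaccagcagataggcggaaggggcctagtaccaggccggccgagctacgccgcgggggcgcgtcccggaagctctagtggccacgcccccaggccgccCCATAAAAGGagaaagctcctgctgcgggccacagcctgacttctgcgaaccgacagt

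Markers of other cells also differed at day 28, some of them at day 40 as well. Beside the pan-leukocyte markers, 7 of 8 measured neutrophil markers were called higher at day 28 than untreated (median 2.51), and 4 of 8 macrophage markers were (median 1.62). All 5 measured erythroid markers (median -3.46) and all 6 platelet markers (median -2.96) were called lower. Of the lung's own cell types, 5 of 7 type I and 5 of 8 type II alveolar epithelial markers were called lower and 3 of 8 endothelial markers were lower, while 3 of 8 fibroblast markers were higher, and 10 of 12 cell cycle genes were called higher. At day 40, when the immediate early median was 0.05, the calls stood at 5 of 7 type I, 5 of 8 type II and 6 of 6 platelet markers lower, and 4 of 8 fibroblast markers and 9 of 12 cell cycle genes higher. At that day 1 of 8 neutrophil markers was called higher and 0 lower, and of 8 macrophage markers 1 was called higher and 1 lower. Of 12 pan-leukocyte markers 0 were called higher and 2 lower (median -0.80). Of 10 B and plasma cell markers 3 were called higher at day 28, and 0 higher and 3 lower at day 40. All 5 erythroid markers were below untreated (median -1.34) with 0 called, and 1 of 8 endothelial markers was called higher and 0 lower. Over all genes 9.17% were called higher and 8% lower at day 28, and 8.5% and 6.71% at day 40. The mean level of the 8 endothelial markers was 3.04 and 3.10 on the day 28 arrays and 3.36 to 3.76 on the others. The part of these shifts in the levels of the immediate early genes was not tested.

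From day 28 to day 40 the immediate early genes were higher again. Both day 40 levels exceeded both day 28 levels for 15 of 16 genes (all but Egr2), against 35.7% of all genes, and the median difference was 0.62 beside 0.10 over all genes. No member of the 41 was called between these days by limma, where 0.201% of all genes were called higher at day 40 and 2.52% lower. Of the 41, 13 had an unadjusted p under 0.05, and the share of all genes at that p is not given here. The 3 with the largest immediate early differences were Atf3 (1.15 ± 0.29), Ier3 (1.06 ± 0.18) and Zfp36 (0.9982 ± 0.27). Within single genotypes these 3 were at least 2-fold higher in WT, where 2.17% of all genes were, and Atf3 alone of the class was in Ccr2KO, where 2.77% were. None of the 41 was 2-fold lower at day 40 than at day 28, where 5.61% of all genes were in WT and 4.76% in Ccr2KO. All 12 pan-leukocyte markers were called lower at day 40 than at day 28 (median -2.48), and their part in this difference was not tested.

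The order of the days held under each scaling of the arrays, with fewer genes under one. With quantile normalisation 13 of 16 immediate early genes were below the other 4 arrays at day 28 (14% of all genes), and 15 were higher at day 40 than at day 28 (27% of all genes). In the deposited, unscaled values the counts were 9 (1.45% of all genes) and 10 (3.52% of all genes).

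**Figure D2:**
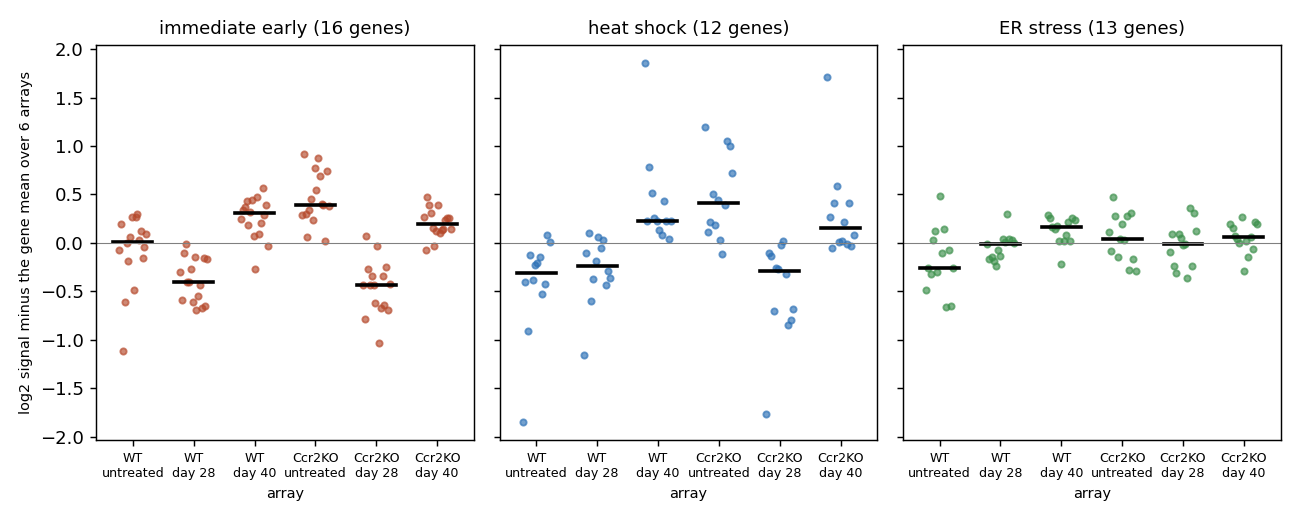
Each point is a gene on an array, as log2 signal minus the gene's mean over 6 arrays, with a bar at the median of the 16 immediate early, 12 heat shock or 13 ER stress genes. The immediate early medians are -0.41 and -0.44 on the WT and Ccr2KO day 28 arrays and 0.01 to 0.39 on the others, and the ER stress medians lie closer together.

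Heat shock genes, 12 of 13 measured, were low in untreated WT and at day 28 and higher in untreated Ccr2KO and at day 40. Their median deviation from the gene's mean was -0.31 in untreated WT, -0.24 and -0.29 on the WT and Ccr2KO day 28 arrays, 0.42 in untreated Ccr2KO and 0.23 and 0.15 at day 40. No heat shock gene was called in any comparison by limma. At day 28 3 of 12 had an unadjusted p under 0.05 (Hspb1, Dnajb4 and Bag3) and at day 40 1 had (Hspb8). At day 40 0 of the 41 genes of all 3 classes were called, where 8.5% of all genes were called higher and 6.71% lower. Of the 41, 6 had an unadjusted p under 0.05 at that day. The share of all genes at that unadjusted p is not given here. It includes every gene called after adjustment, so these unadjusted counts are not read as a change. The median of the class was -0.27 at day 28 and 0.27 at day 40.

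Hspa1a, which encodes the stress-inducible HSP70, had the widest range of the 41 genes. Its level was 1.32 in untreated WT, 2.004 at day 28 and 5.02 at day 40. In Ccr2KO it was 4.36 untreated, 1.40 at day 28 and 4.88 at day 40. The 6 pools thus fell into 3 high ones (untreated Ccr2KO and both day 40 pools) and 3 low ones (untreated WT and both day 28 pools), more than 2 log2 units apart. Because the untreated pools were at opposite ends, the silica difference of 0.49 ± 0.84 (adjusted p = 0.702 by limma) has no settled sign: without the untreated WT array it was -1.22 (adjusted p = 0.0470), without the untreated Ccr2KO array 2.20 (adjusted p = 0.0233), with WT day 28 removed -0.02 (adjusted p = 0.990), and blocked on slide row -1.05 (adjusted p = 0.779). Hspa1a and Hspb1 were the heat shock genes at least 2-fold higher at day 40 than at day 28 in both genotypes. Signal from the near-identical copy Hspa1b may be read by the Hspa1a probe.

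Co-chaperones of HSP70 followed Hspa1a in part. Dnajb1, a J-domain protein that delivers substrates to HSP70, read 5.11, 5.11 and 5.77 in WT against 6.59, 4.69 and 5.95 in Ccr2KO. Its highest level was thus in untreated Ccr2KO and its lowest in Ccr2KO at day 28, which was -1.90 log2 units against untreated Ccr2KO. Dnajb4, another J-domain protein, read 0.83, 0.46 and 0.79 in WT against 1.76, -0.04 and 0.73 in Ccr2KO. Dnajb4 was the only one of the 41 at least 2-fold lower than untreated at day 40 in Ccr2KO (-1.03), where 5.8% of all genes were. Bag3, a nucleotide exchange factor that directs clients to autophagy, read 4.22, 3.85 and 4.44 in WT against 4.93, 3.53 and 4.29 in Ccr2KO.

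Small heat shock proteins were also lowest at day 28 or near it. Hspb1 (HSP27) read 6.83, 6.35 and 7.47 in WT against 7.46, 6.25 and 7.36 in Ccr2KO, a difference of -0.84 ± 0.23 at day 28 (adjusted p = 0.0806 by limma), which passed under the same 4 settings as Fosb. Hspb8, the partner of Bag3, read 2.08, 2.09 and 2.73 in WT against 2.65, 2.21 and 3.05 in Ccr2KO, higher in Ccr2KO on all 3 days. In all, 4 of 12 heat shock genes (Hspb1, Dnajb1, Dnajb4 and Bag3) had both day 28 levels below the other 4, against 17.6% of all genes, and 9 of 12 had both day 40 levels above both day 28 levels, against 35.7%.

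**Figure D3:**
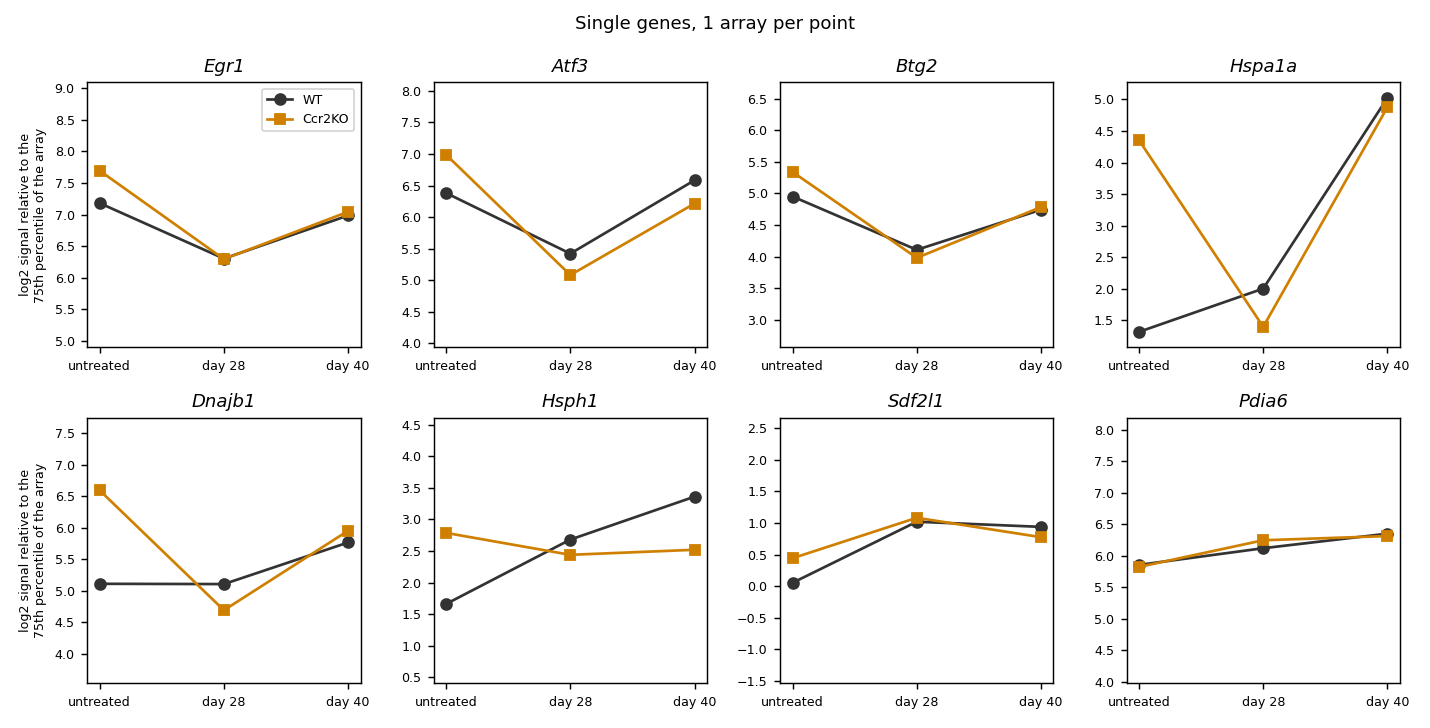
Levels of 8 genes by day, as log2 signal relative to the array's 75th percentile, with WT as black circles and Ccr2KO as orange squares, 1 array per point; every y axis spans 4.2 log2 units. Egr1, Atf3 and Btg2 are lowest at day 28 in both genotypes, Hspa1a and Dnajb1 differ most between the untreated pools, and Sdf2l1 and Pdia6 are lowest in the untreated pools.

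The remaining chaperones varied less or in another order. Hsph1, an HSP110-type exchange factor, read 1.66, 2.68 and 3.36 in WT against 2.79, 2.44 and 2.52 in Ccr2KO, so that its level was higher with silica in WT and slightly lower in Ccr2KO. A second Hsph1 probe gave the same orders. Dnaja1 read 4.99, 5.54 and 5.95 in WT against 5.91, 5.19 and 5.51 in Ccr2KO. Its second probe had the same direction in all 4 comparisons of a silica pool with its untreated pool. Hsp90aa1, the inducible cytosolic HSP90, ranged from 4.43 to 5.14. Hspa8, the constitutive HSC70, ranged from 7.14 to 7.81 on its brightest probe. Its other probes had wider ranges, 3.76 to 5.04 and 5.71 to 6.88, each lowest in untreated WT and highest in WT at day 40.

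Hspd1 and Hspe1, which encode the mitochondrial chaperonin and its partner, were the steadiest heat shock genes. Hspd1 ranged from 3.69 to 4.03 and Hspe1 from 3.51 to 3.88. Hspe1 was the only heat shock gene with both untreated levels below all 4 silica levels (3.51 and 3.54 against 3.61, 3.68, 3.74 and 3.88), an order found in 21.1% of all genes. The heat shock element, searched as the blocks GAA, TTC and GAA with 2 bases between neighbours, was found in the windows of Hspd1 and Hspe1 (2 of 10 heat shock genes with a window) and in 0.514% of all genes, and the pair are divergent neighbours that share that stretch.

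ER stress genes, all 13 measured, varied little over arrays: a gene's levels lay within -0.67 and 0.48 of its mean, against -1.84 to 1.86 for the heat shock genes. Both untreated levels lay below all 4 silica levels in 3 of the 13 (Sdf2l1, Pdia4 and Pdia6), or 23.1%, a share near the 21.1% of all genes. Sdf2l1, an ER protein that works with BiP, was called higher with silica (0.71 ± 0.15, adjusted p = 0.0435 by limma). It read 0.05 in untreated WT and 1.02 and 0.94 at days 28 and 40, and 0.44, 1.08 and 0.78 in Ccr2KO. Both untreated levels were below all 4 silica levels, and it was the only one of the 41 with both day 28 levels above the other 4, against 8.67% of all genes. The day 28 difference was 0.80 ± 0.17 (adjusted p = 0.0484), and no other ER stress gene was called in any comparison. For silica and at day 28 the class thus had 1 of 13 called higher (7.69%), below the 10.5% and 9.17% of all genes. It had 0 called lower, where 9.28% and 8% of all genes were. Neither call held with any 1 array left out, where the silica difference was 0.49 to 0.93, with an adjusted p of 0.156 without untreated WT, 0.0535 without untreated Ccr2KO, 0.170 and 0.154 without the WT and Ccr2KO day 28 arrays and 0.0957 and 0.0651 without those of day 40. Quantile normalisation ended its call at day 28 (0.82) and kept the one for silica (adjusted p = 0.0472). The class median for silica was 0.06, beside -0.01 over all genes, and in the deposited unscaled values it was -0.12 beside -0.19.

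The disulfide isomerases Pdia4 and Pdia6 also had both untreated levels below the silica levels, but not both day 28 levels above both day 40 levels, as Sdf2l1 had. Pdia4 read 0.26, 0.94 and 1.18 in WT against 0.75, 1.23 and 1.13 in Ccr2KO, and its silica difference of 0.61 ± 0.15 missed the threshold (adjusted p = 0.0560 by limma). Pdia6 read 5.86, 6.12 and 6.35 in WT against 5.82, 6.25 and 6.31 in Ccr2KO, a difference of 0.42 ± 0.10 (adjusted p = 0.0555). A second Pdia6 probe gave 0.16. Both genes passed with normexp background correction, with an intensity trend in the fit, and when genes had to be above background on all 6 arrays. Neither passed with any 1 array left out or when blocked on slide row, and Pdia6 had 0.28 with quantile normalisation (adjusted p = 0.176) and 0.24 in the deposited value table (adjusted p = 0.159).

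Hspa5, which encodes the main ER chaperone BiP, read 5.87, 6.35 and 6.64 in WT against 6.47, 6.26 and 6.55 in Ccr2KO. Hsp90b1, the ER form of HSP90, read 5.52, 5.61 and 6.04 in WT against 5.70, 5.87 and 5.93 in Ccr2KO. Untreated WT was the lowest pool for both, and neither passed the test (silica differences 0.28 ± 0.19 and 0.26 ± 0.12, adjusted p 0.339 and 0.207 by limma). Dnajb9, a J-domain protein of the ER lumen, ranged from 2.38 to 2.93. Herpud1, a component of ER-associated degradation, ranged from 3.97 to 4.62. Both of its untreated levels were above the silica levels, an order found in 24% of all genes.

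The ER stress element, searched as CCAAT and CCACG with 9 bases between them, which ATF6 binds together with NF-Y and which is the most specific sequence of this response, was found in 3 of 13 ER stress genes (Hspa5, Hsp90b1 and Pdia6) and in 0.13% of all genes. Their windows are shown because they are the ER chaperones and folding enzyme that carry the element, in capitals. Hspa5 lies at chr2:34771840-34772089 on the plus strand, with an AP-1 site TGAGTCA 182 bases and the ER stress element 65 bases before the start. Hsp90b1 lies at chr10:86705445-86705694, minus strand, with the element at 212 and, as the reverse complement, at 107 bases. Pdia6 lies at chr12:17266339-17266588, plus strand, with the element at 98 bases.
Hspa5: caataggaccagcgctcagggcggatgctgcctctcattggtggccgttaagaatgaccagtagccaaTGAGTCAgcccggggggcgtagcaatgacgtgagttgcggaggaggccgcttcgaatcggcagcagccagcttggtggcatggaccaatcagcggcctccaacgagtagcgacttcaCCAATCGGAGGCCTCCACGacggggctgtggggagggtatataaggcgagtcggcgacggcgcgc
Hsp90b1: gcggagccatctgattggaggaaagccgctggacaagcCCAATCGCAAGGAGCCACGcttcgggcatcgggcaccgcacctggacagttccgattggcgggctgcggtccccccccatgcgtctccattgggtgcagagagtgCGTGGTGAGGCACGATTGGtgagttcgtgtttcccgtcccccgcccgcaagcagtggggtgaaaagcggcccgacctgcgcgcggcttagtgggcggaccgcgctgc
Pdia6: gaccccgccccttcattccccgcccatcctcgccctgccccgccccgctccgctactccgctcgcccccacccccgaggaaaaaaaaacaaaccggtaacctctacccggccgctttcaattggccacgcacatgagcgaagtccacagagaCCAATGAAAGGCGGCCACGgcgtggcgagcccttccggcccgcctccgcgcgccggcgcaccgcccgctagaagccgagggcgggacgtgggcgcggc

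Of the 5 genes of the ATF4 branch 0 were called, where 10.5% of all genes were called higher and 9.28% lower for silica. Their silica differences ran from -0.51 (Chac1) to 0.20 (Asns). Atf4, the transcription factor of that branch, was the only ER stress gene with both day 28 levels below the other 4, at 6.83, 6.61 and 6.94 in WT and 7.07, 6.48 and 6.84 in Ccr2KO. This share, 1 of 13 (7.69%), is below the 17.6% of all genes. With quantile normalisation and in the deposited unscaled values 0 of the 13 had this order, where 14% and 1.45% of all genes did. Chac1, an ATF4 target that degrades glutathione, read 0.32, -0.30 and -0.38 in WT against 0.03, -0.19 and -0.46 in Ccr2KO. Both untreated levels were above all 4 silica levels, an order found in 24% of all genes, and the silica difference of -0.51 ± 0.12 missed the threshold (adjusted p = 0.0595 by limma). Ddit3, which encodes the pro-apoptotic factor CHOP, ranged from 0.04 to 0.83, Trib3 from 1.19 to 1.61 and Asns (asparagine synthetase) from 2.40 to 2.97. Xbp1, whose mRNA is spliced by the sensor IRE1, stayed between 5.86 and 6.01 in all pools, and its splicing was not measured here.

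**Figure D4:**
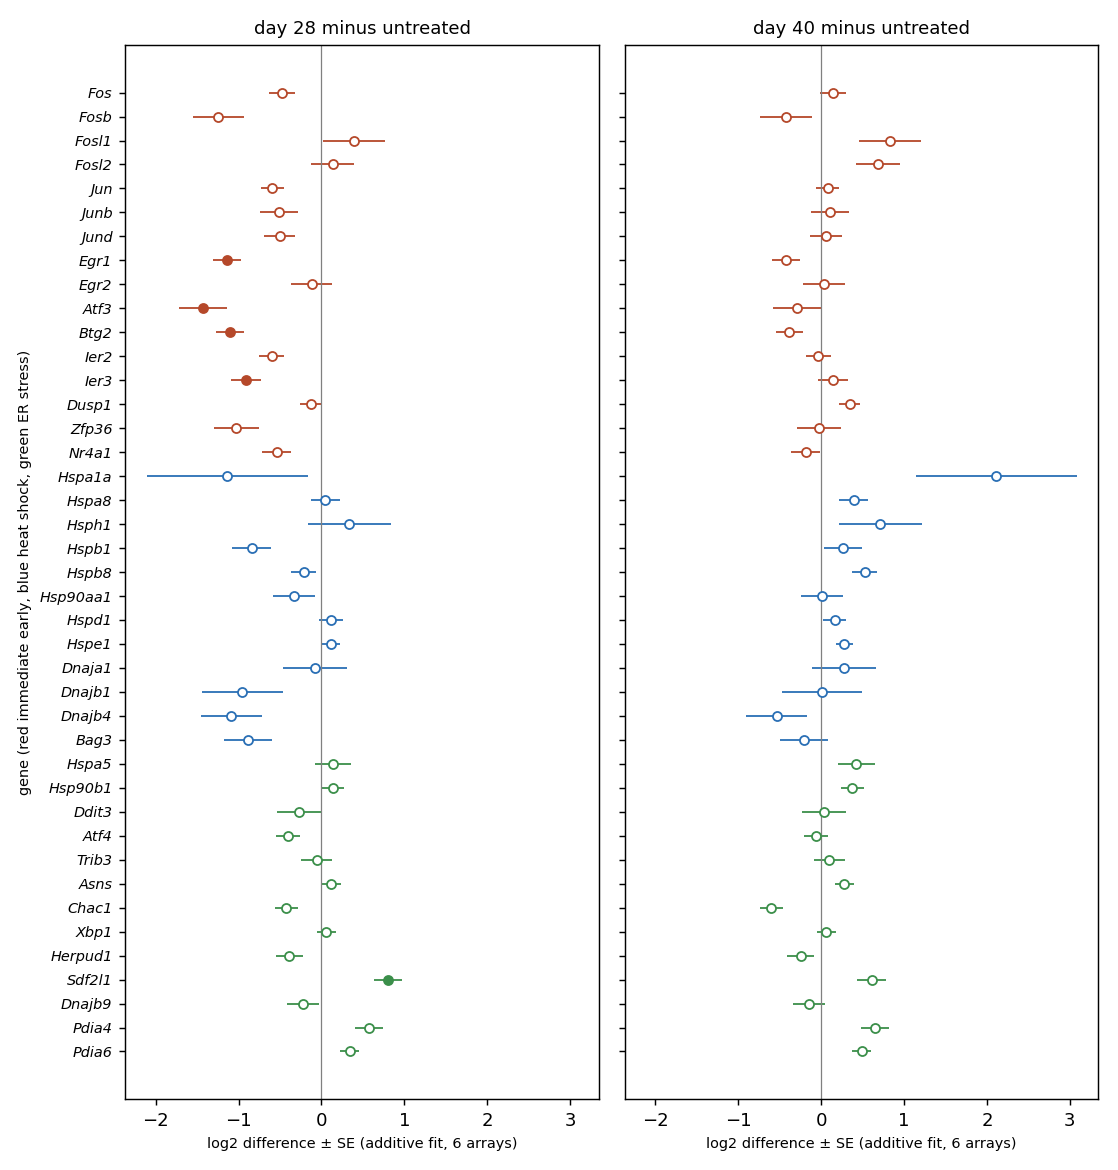
Fitted log2 differences from untreated at day 28 (left) and day 40 (right) for the 41 genes, with bars of ± 1 SE and filled points for an adjusted p under 0.05. Filled points occur at day 28 only, at Egr1, Atf3, Btg2 and Ier3 below 0 and at Sdf2l1 above 0.

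Other genes of the same pathways were counted from 3 wider lists. Of 46 other immediate early genes, all measured, 4 were called higher with silica, 1 lower and 41 were not called, beside 10.5% higher and 9.28% lower over all genes. Npas4, an activity-dependent transcription factor, read -3.82, -2.70 and -2.28 in WT against -3.78, -2.57 and -1.90 in Ccr2KO (1.44 ± 0.12, adjusted p = 0.00893 by limma). Dusp2, a phosphatase of MAP kinases that is abundant in activated leukocytes, read 3.52, 4.85 and 4.14 in WT against 2.81, 4.60 and 4.39 in Ccr2KO (1.33 ± 0.22, adjusted p = 0.0277). Its day 28 peak in both genotypes is shared with the pan-leukocyte markers, whose mean was lower at day 40 than untreated while Dusp2 was higher, and their part was not tested. The others called higher were Ccn2, a matrix-associated growth factor (0.80 ± 0.16), and the transcription factor Bhlhe40 (0.74 ± 0.12).

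Errfi1, a feedback inhibitor of the EGF receptor, was the one called lower, with 5.95, 4.61 and 5.11 in WT and 5.88, 4.62 and 5.47 in Ccr2KO (-0.96 ± 0.13, adjusted p = 0.0187 by limma). Like Egr1 and Btg2 it was lowest at day 28 and highest in the untreated pools. The median of the 46 genes for silica was -0.10, beside -0.01 over all genes.

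Of 45 other heat shock genes, 44 were measured (Dnajb5 was not), 2 were called higher with silica and 0 lower, which is below the share over all genes (10.5% higher, 9.28% lower). Serpinh1, the collagen chaperone of the ER, read 3.91, 4.73 and 5.14 in WT against 4.13, 5.04 and 5.33 in Ccr2KO (1.04 ± 0.09, adjusted p = 0.00992 by limma). Hspb7, a small heat shock protein of muscle, gave 0.87 ± 0.16. Serpinh1 was higher at each later day in both genotypes, alongside some fibroblast markers (3 of 8 called higher at day 28, 4 of 8 at day 40). The other direction was seen for 2 of the 8, Pdgfra and Tcf21, on both days (lowest difference -1.42 at day 28 and -1.49 at day 40). Of the 8 markers 1 was called lower for silica. The part of fibroblasts in the levels of Serpinh1 was not tested.

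Of 50 other ER stress genes, all measured, 13 were called higher with silica, 1 lower and 36 were not called, with a median of 0.30, beside 10.5% higher, 9.28% lower and a median of -0.01 over all genes. The largest was Slc7a11, the cystine transporter subunit and ATF4 target, at -5.30, -1.60 and -4.50 in WT and -4.75, -1.97 and -4.01 in Ccr2KO (2.004 ± 0.236, adjusted p = 0.0146 by limma). It peaked at day 28 in both genotypes and was called lower at day 40 than at day 28 (-2.47 ± 0.27, adjusted p = 0.0338). This day 28 peak, like that of Dusp2, is shared with the pan-leukocyte markers, and their part was not tested. Aldh18a1, a proline synthesis enzyme, gave 1.49 ± 0.12, the mTOR inhibitor Ddit4 gave 1.42 ± 0.11 and Mthfd2, a mitochondrial folate enzyme, gave 1.23 ± 0.10. Vldlr, a lipoprotein receptor, was called lower (-0.77 ± 0.17).

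The other 9 called higher are named here after their values were seen. They were the transcription factor gene Creb3l1 (0.73), the stress-induced regulator Nupr1 (0.52), the ER chaperone and co-chaperone genes Calr (0.52) and Dnajb11 (0.45), and the isomerase genes P4hb (0.49) and Pdia3 (0.49). Phgdh (0.91), Psat1 (0.81) and Shmt2 (0.47) encode enzymes of serine synthesis and use. With the array of any 1 group left out, at most 7 of the 50 were called and at fewest 0.

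Between the genotypes, 0 of the 41 genes and 0% of all 16440 genes were called by limma over the 3 days (Ccr2KO minus WT), with 1526 genes and 1 of the 41, Egr2, at an unadjusted p under 0.05. Egr2 had a difference of 0.60 ± 0.20 (adjusted p = 0.527). Ccr2KO was above WT on all 3 days for 6 of the 41 genes (Fosl1, Egr2, Hspa8, Hspb8, Hspe1 and Asns), against 19.6% of all genes, and below WT on all 3 days for 0, against 13.3%. These orders are those of the brightest probe. On the other Hspa8 probes Ccr2KO was below WT at days 28 and 40. On another Hspe1 probe Ccr2KO was below WT untreated and at day 28. The median differences of the immediate early, heat shock and ER stress classes were 0.11, 0.12 and 0.03, beside 0.03 over all genes, and all 3 turned negative in the deposited unscaled values (-0.11, -0.11 and -0.20, beside -0.20 over all genes). With quantile normalisation they were 0.04, 0.07 and -0.01. Without either untreated array all 3 medians were also below 0, at -0.06, -0.13 and -0.02.

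The genotypes differed mainly in the untreated pools. There all 16 immediate early and all 12 heat shock genes were higher in Ccr2KO than in WT, with medians of 0.45 and 0.69 beside 0.05 over all genes, and 10 of 13 ER stress genes were, where 58% of all genes were. At day 28 0 of the 41 were 2-fold apart in either direction, where 1.24% of all genes were higher and 1.19% lower, and at day 40 0 were, where 3.31% were higher and 1.59% lower. At day 28 the medians were -0.07 (immediate early) and -0.17 (heat shock), and at day 40 -0.04 and -0.11. At least 2-fold higher in untreated Ccr2KO were Fosl1, Egr2, Hspa1a, Hsph1 and Dnajb1, 5 of 41 where 2.17% of all genes were, and 0 were 2-fold lower, where 2.81% were. In the deposited unscaled values 13 of 16 immediate early and 10 of 12 heat shock genes were higher, where 18% of all genes were. These are differences between 2 pools with no replicate check and no test.

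Both untreated arrays lay in the same row of the slide, so this pair does not cross rows. The mean level of the 12 pan-leukocyte markers was 2.48 in untreated WT and 1.47 in untreated Ccr2KO, and that of the 8 endothelial markers 3.70 and 3.41. The erythroid markers were level (3.13 in both) and so were the platelet markers (0.19 and 0.18). The part of these values in the higher stress gene levels of untreated Ccr2KO was not tested.

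Against each genotype's own untreated pool, day 28 gave different counts in the 2 genotypes, which was not tested beyond the fit described next. In Ccr2KO all 16 immediate early genes were lower at day 28 (median -0.79), 6 of them by at least 2-fold, and so were 11 of 12 heat shock genes (median -0.71), 5 of them by at least 2-fold, where 5.99% of all genes were. In WT 12 of 16 immediate early genes were lower (median -0.37), and 0 of the 41 were lower by 2-fold, where 5.57% of all genes were. By the brightest probe, Fosl1 and Hsph1 were at least 2-fold higher than untreated in WT at day 28 (9.13% of all genes). At day 40 Fosl1, Fosl2, Hspa1a and Hsph1 were (7.79%), and 0 were 2-fold lower (6.19%). Hspa8 was also at least 2-fold higher in WT at day 40 on its other probes (5.04 against 3.76, and 6.88 against 5.71). In Ccr2KO 0 of the 41 were 2-fold higher at day 28 (9.36% of all genes) or day 40 (8.95%). The WT heat shock median was 0.07 at day 28 and 0.64 at day 40, and that of Ccr2KO was -0.18 at day 40. The Ccr2KO day 28 and untreated arrays lay in 1 slide row and those of WT in different rows. Both untreated arrays lay in row 1 and both day 40 arrays in row 2. Within either genotype, day 40 minus untreated therefore cannot be told apart from slide row.

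The difference of the silica responses (Ccr2KO minus WT) was tested with a genotype by silica fit. By limma, 0 of the 41 genes and 0% of all genes were called, with 618 genes and 3 of the 41 (Fosl1, Hsph1 and Dnaja1) at an unadjusted p under 0.05. The difference was below 0 for all 16 immediate early genes (median -0.49), 11 of 12 heat shock genes (median -0.88) and 10 of 13 ER stress genes (median -0.36), beside a median of -0.03 over all genes. Both responses rest on 1 untreated pool each, so a single untreated array shifts all these differences together.

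The order of levels was opposite in the genotypes for 8 of the 41 genes, higher than untreated on both silica days in WT and lower on both in Ccr2KO, where 4.96% of all genes had that order. They were Egr2, Hsph1, Hsp90aa1, Hspd1, Dnaja1, Ddit3, Xbp1 and Dnajb9. The order counts any gap, however small. In Ccr2KO Hspd1 was lower by only 0.05 and 0.01 (days 28 and 40), and Xbp1 read 5.995 untreated against 5.956 and 5.990. The reverse order was found in 0 of 41 and in 3.79% of all genes. Of these, Hsph1 had the widest gap, 1.02 and 1.70 higher in WT and 0.35 and 0.27 lower in Ccr2KO (day 28, day 40), and its difference of responses was -1.67 ± 0.48 (adjusted p = 0.9998 by limma).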

How the data were processed

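RNA of CD45-negative lung cells was read on 6 one-colour Agilent arrays (Cy3, design 028005), 1 per genotype and day, each pooled from 3 biological replicates per the labels. The deposited scanner files hold intensity values per spot that Agilent Feature Extraction 11.0.1.1 background-subtracted, per the file headers. The deposited value table holds log2 values of the same processed signals, unscaled, with column medians of 9.23 to 9.82. The submitters' processing notes also name R 2.15.1.

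Control spots were left out, spots marked as outliers were set missing, repeated spots averaged, and log2 values taken relative to the array's 75th percentile. Probes were named through RefSeq accessions (GRCm38.p6) and kept if well above background on 2 or more of 6 arrays, with the brightest probe per gene, which left 16440 genes. No spot was saturated (0 on each array). Tests used limma 3.58.1 in R 4.3.3 (lmFit and eBayes, day and genotype, or genotype by silica) with Benjamini-Hochberg adjustment, and the scripts were tested on simulated data. There 2-fold changes were called in 13.8% of cases for silica, 1.6% at day 28, 2.2% at day 40 and 3% between the days. For genotype 24.6% were called. For the difference of responses 0% were, and 18% of 8-fold changes, against 85.4% to 94% in the other comparisons. The simulated data held few changed genes, while in the real data 3249 (silica), 2823 (day 28) and 2500 (day 40) of 16440 were called. The Benjamini-Hochberg adjustment is stricter where few genes change, so these shares do not give the sensitivity of those tests in the real data. A gene that was not called may still have changed. With 6 arrays and 2 residual degrees of freedom, the number of arrays limits the precision.

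The 43 genes and the wider and marker lists were chosen with earlier results of these data known. The text names all 43 genes and, from each wider list, up to 4 genes per direction with the largest silica difference among those called and above background on all arrays of the side where they were higher, and also the other 9 ER stress genes called higher. Alternatives were normexp background correction (offset 50, on the median signal because the files used here hold no mean signal, an alternative chosen after seeing the data), quantile normalisation, the value table, other probe filters, averaging over a gene's probes, blocking on slide row, a variance prior that is robust and follows intensity, and leaving out each array.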

Additional observations from a re-analysis of the deposited data

Results flagged for a closer look

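For 8 genes every silica pool was above its untreated pool in WT and below it in Ccr2KO, by very little in Ccr2KO for Hspd1 and Xbp1. The silica response in Ccr2KO minus that in WT, by the genotype by silica fit of limma, was -0.64 ± 0.35 (SE) for Egr2, -1.67 ± 0.48 for Hsph1, -0.81 ± 0.38 for Hsp90aa1 and -0.34 ± 0.22 for Hspd1. It was -1.31 ± 0.38 for Dnaja1, -0.88 ± 0.34 for Ddit3, -0.16 ± 0.21 for Xbp1 and -0.56 ± 0.24 for Dnajb9. The adjusted p was 0.9998 for each, so none passed, and each direction rests on 2 silica pools against 1 untreated pool per genotype. With quantile normalisation the same order was found for Egr2, Hsph1, Dnaja1, Ddit3 and Dnajb9 of these 8, and in the deposited unscaled values for Hsph1, Hsp90aa1, Dnaja1 and Ddit3.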

How the results depend on the processing

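The counts of the 41 genes called for silica (3), at day 28 (5), at day 40 (0) and between days 40 and 28 (0) moved with the processing. Over all genes 3249, 2823, 2500 and 448 were called in the same order, and these numbers moved too. With normexp the counts of the 41 were 6, 11, 3 and 2 (4360, 3914, 3552 and 701 of all genes). With only genes above background on all 6 arrays they were 6, 10, 2 and 1 (3750, 3400, 2917 and 541 of all genes). With an intensity trend and robust prior they were 6, 11, 5 and 2 (4298, 3816, 3481 and 674 of all genes). The value table is unscaled and has medians of all genes of -0.19 for silica, -0.34 at day 40, -0.25 between the days and -0.20 for genotype (-0.01, 0.02, 0.10 and 0.03 with scaling). There the counts were 14 (1 up, 13 down), 11, 4 and 0, and over all genes 4937, 3220, 6117 and 883. Without the filter they were 0 for silica and 0 at day 28, where more genes enter the adjustment and 1877 and 1422 of all genes were called. Blocked on slide row they were 0 and 0, as over all genes, with 1 residual degree of freedom. Leaving out each array gave 0 to 8 for silica, 0 to 10 at day 28, 0 to 4 at day 40 and 0 to 4 between the days. The 8 and 10 came without untreated WT, and 0 of all genes were called without either day 28 array. The mean of a gene's probes and quantile normalisation gave the same 4 counts. Genotype and the difference of responses gave 0 throughout, and the latter could not be fitted without an untreated array.

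The wider immediate early list (5) gave 9 with normexp, 12 in the value table, 2 without the filter, 8 with the trend, 0 with the slide row and 0 to 8 with an array left out. The wider heat shock list (2) gave 5, 11, 1, 7 and 0 in that order, 4 with all 6 arrays above background and 0 to 2 with an array left out. The wider ER stress list (14) gave 6 without the filter, 0 with the slide row and 0 to 7 with an array left out. The silica numbers over all genes, given above for these settings, moved as well, so the counts of the wider lists are not read alone. The ER stress medians in the value table were -0.12 (silica) and -0.20 (genotype). With an array left out, the silica medians ran from -0.56 to 0.32 for heat shock and from -0.022 to 0.28 for ER stress genes. The genotype medians ran from -0.06 to 0.22 (immediate early), -0.13 to 0.27 (heat shock) and -0.02 to 0.07 (ER stress). Hspa1a turned to -1.05 with the slide row and ran from -1.22 to 2.20 with an array left out. Causes were not tested. Of the other 32 genes, 7 changed sign for silica under some other setting and 20 with some array left out, none of them called after it. No paired analysis was possible because each group holds 1 array.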
